A study of Mus musculus with 2 samples.

Results

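Tenocytes, the resident fibroblasts of tendon, were described in injured mouse quadriceps from single-cell RNA counts at 9 h and 2 h after injection of barium chloride, against the fibro-adipogenic progenitors (FAPs) of the same libraries. A cell barcode was taken as a tenocyte when it carried at least 1 molecule count (unique molecular identifier, UMI) of at least 3 of 8 tendon genes (Tnmd, Fmod, Thbs4, Scx, Comp, Mkx, Kera and Chad), none of the leukocyte gene Ptprc and none of the endothelial gene Cdh5. Every barcode also needed at least 200 genes, at least 500 UMIs and at most 20% mitochondrial UMIs. The rule found 127 tenocytes among 13047 kept barcodes, of 14519 in both matrices: 46 of 8147 at 9 h and 81 of 4900 at 2 h. FAPs were kept barcodes with at least 1 Pdgfra UMI, at least 10 Dcn UMIs and fewer than 3 of the 8 tendon genes, and numbered 1776 at 9 h and 1697 at 2 h.

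Both libraries hold mononuclear cells of wild-type (WT) C57BL/6J quadriceps that was injured by intramuscular injection of 100 µl of 1.2% (w/v) BaCl2. There is 1 library for each time and no uninjured one, and the labels do not say how many animals went into a library. The cells had been frozen and thawed before droplet capture with 10x 3′ chemistry. The question behind the series, by its title, is the supply of the monocyte attractant CCL2 by FAPs after muscle injury.

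Tendon joins muscle to bone and consists mostly of parallel type I collagen fibrils. Its cells make those fibrils and the small proteoglycans and thrombospondins that set fibril width and spacing, under transcription factors such as scleraxis (Scx) and Mohawk (Mkx). FAPs are the interstitial fibroblasts of muscle itself, and after injury they are a known source of matrix and of chemokines that draw leukocytes.

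Tenocytes made up 0.565% of kept barcodes at 9 h (95% Clopper-Pearson interval 0.414 to 0.752) and 1.65% at 2 h (1.31 to 2.05). A neutrophil reference was made of kept barcodes with at least 20 S100a8 UMIs, at least 1 Csf3r UMI and no Pdgfra UMI that were not tenocytes. Over kept barcodes outside this reference, the tenocyte share was 0.811% at 9 h (0.594 to 1.08) and 2.31% at 2 h (1.84 to 2.86). Per 1000 FAPs there were 25.9 tenocytes at 9 h and 47.7 at 2 h. Because tendon genes chose the cells, fewer tenocytes and less tendon RNA per tenocyte cannot be told apart in these shares.

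The median tenocyte held 7496 UMIs at 9 h and 9001 UMIs at 2 h, close to the FAP medians of 8781 and 8429 UMIs, and the summed tenocyte UMIs were 357675 at 9 h and 772229 at 2 h. Median mitochondrial shares were 4.28% at 9 h and 5.07% at 2 h in tenocytes, and 2.81% at 9 h and 3.84% at 2 h in FAPs. The libraries shared 20 barcode sequences, 1 of them that of a tenocyte. Of kept barcodes with at least 3 tendon genes, 6 at 9 h and 9 at 2 h were left out for Ptprc or Cdh5. At the edge of the rule, the barcodes with exactly 3 tendon genes had a median of 88.5 tendon UMIs at 9 h and 18.5 at 2 h, while those just outside it, with 2 tendon genes and neither Ptprc nor Cdh5, had medians of 8 and 4.5. At 2 h 9 tenocytes, and at 9 h 0, had under 10 tendon UMIs.

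Markers of other cells were summed to check the label. Levels are given as CPM, the UMIs of a gene per 1000000 UMIs summed over the cells of a group. The 10 macrophage markers summed to 33.6 CPM at 9 h and 36.3 CPM at 2 h in tenocytes, with Adgre1 at 0. In FAPs they summed to 225 CPM at 9 h and 262 CPM at 2 h, and to 72.9 and 64.4 CPM once FAPs, like tenocytes, had to lack Ptprc and Cdh5, so much of that gap comes with the rule. The 10 neutrophil markers summed to 2122 CPM at 9 h and 347 CPM at 2 h in tenocytes, against 749 and 365 CPM in FAPs without Ptprc and Cdh5. Of the tenocyte sums, Lcn2, which is not confined to neutrophils, made up 1868 CPM at 9 h and 208 CPM at 2 h, and S100a8 106 and 45.3 CPM.

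The 10 myofibre markers summed to 5.59 CPM at 9 h and 35.0 CPM at 2 h in tenocytes. The 10 pericyte and smooth muscle markers summed to 86.7 CPM at 9 h and 215 CPM at 2 h in tenocytes, against 95.7 and 169 CPM in FAPs. At 2 h 56 of the 81 tenocytes carried at least 1 of their UMIs. The 10 endothelial markers summed to 11.2 and 41.4 CPM in tenocytes, and the 12 glial and perineurial markers to 55.9 and 104 CPM. The 9 satellite cell markers summed to 2195 CPM at 9 h and 1586 CPM at 2 h in tenocytes, against 2330 and 1024 CPM in FAPs. Most of the tenocyte sum was Sdc4 (syndecan 4, a widely expressed proteoglycan), with 1963 CPM at 9 h and 1247 CPM at 2 h. Vcam1 and Chodl were higher in tenocytes than in FAPs at 2 h, with log2 ratios of 1.02 and 4.25, while the defining genes Pax7, Myf5, Myod1, Cdh15 and Calcr had no UMI at either time. The 15 genes of fibrocartilage and bone summed to 47.5 CPM at 9 h and 99.7 CPM at 2 h in tenocytes, against 89.0 and 112 CPM in FAPs. At 2 h 26 of the 81 tenocytes carried at least 1 of their UMIs, and the highest tenocyte had 1535 CPM. Acan, Sp7 and Bglap had no UMI, which allows up to 8.39 CPM at 9 h and 3.88 CPM at 2 h (3 UMIs of the total). Sox9 had 30.8 CPM at 9 h and 28.5 CPM at 2 h. FAP genes were not absent: 17 of the 46 tenocytes at 9 h and 29 of the 81 at 2 h also met the Pdgfra and Dcn counts of FAPs. Whether some of these are doublets of a tenocyte and a FAP was not tested, and tenocyte levels of FAP genes include them.

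The tenocytes were selected on UMIs of the 8 tendon genes, so the levels of these genes are a description. Thbs4 (thrombospondin 4, a matrix protein of tendon and muscle) had 16062 CPM at 9 h and 12047 CPM at 2 h, and was carried by 46 of 46 and 80 of 81 tenocytes. Fmod (fibromodulin, a proteoglycan on collagen fibrils) had 3987 CPM at 9 h and 8879 CPM at 2 h. Comp (cartilage oligomeric matrix protein, another thrombospondin) had 839 CPM at 9 h and 1670 CPM at 2 h. Apart from Thbs4, each of these genes stood lower at 9 h than at 2 h.

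Tnmd (tenomodulin, a membrane glycoprotein used as a marker of mature tenocytes) had 579 CPM at 9 h and 1563 CPM at 2 h, which is 2.70-fold lower at 9 h (2.33 to 3.15). Ranges after folds and levels are exact 95% counting intervals. They cover counting error only and are too narrow for groups of few cells, whose UMIs are not independent. Chad (chondroadherin, a leucine-rich cell-binding matrix protein) had 254 CPM at 9 h and 1386 CPM at 2 h, 5.45-fold lower at 9 h (4.39 to 6.82). Kera (keratocan, a small proteoglycan) had 151 CPM at 9 h and 692 CPM at 2 h. Of the transcription factors, Scx had 11.2 CPM in 3 cells at 9 h and 170 CPM in 29 cells at 2 h, and Mkx had 11.2 CPM in 4 cells at 9 h and 67.3 CPM in 30 cells at 2 h. In FAPs, which carry by rule fewer than 3 of these genes, Fmod had 2.99 CPM at 9 h and 9.73 CPM at 2 h.

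**Figure D1:**
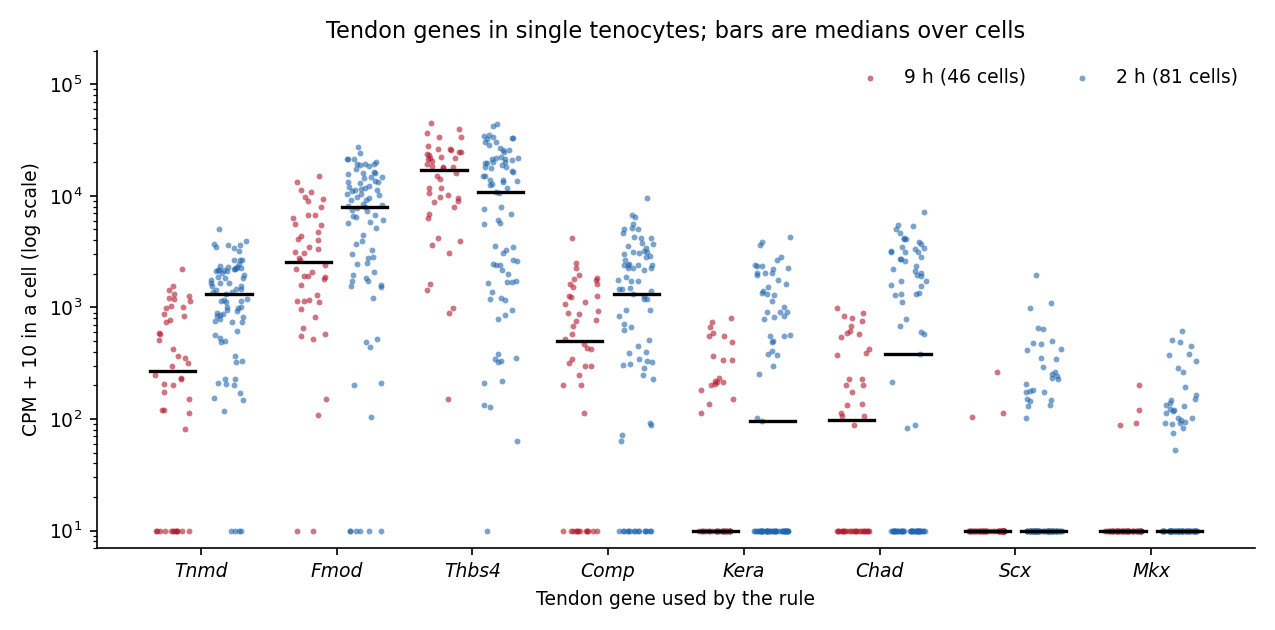
CPM plus 10 of each of the 8 tendon genes in single tenocytes (log axis), with 46 cells at 9 h in red left of 81 cells at 2 h in blue, and bars at the median over cells; points at 10 are cells with no UMI. Thbs4 has its median at 16992 CPM at 9 h and 10877 CPM at 2 h, while Fmod has 2531 CPM at 9 h and 7984 CPM at 2 h and Scx and Mkx have medians of 0.

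To compare shares of cells at equal depth, every cell was thinned to 1000 UMIs, which left out 1 tenocyte at 2 h. Tnmd was then seen in 30.4% of tenocytes at 9 h (17.7 to 45.8) and 68.8% at 2 h (57.4 to 78.7), from unthinned shares of 73.9% and 95.1%. Thinned Tnmd shares in FAPs were 0.169% at 9 h and 0.707% at 2 h, and in the neutrophil reference, which should lack the gene, 0 of 2411 barcodes at 9 h and 0.146% at 2 h.

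The stretches of 250 bases before the transcription starts of 4 genes are shown because the genes differed in their course: Tnmd and Chad were lower at 9 h, Thbs4 was inside 2-fold and Angptl7, described next, was higher. They come from RefSeq on build GRCm38.p6, 5′ to 3′ on the gene's strand, at chrX:133850758-133851007 (plus), chr11:94564797-94565046 (plus), chr13:92794819-92795068 (minus) and chr4:148500463-148500712 (minus). Capitals mark matches to CANNTG, the E-box to which basic helix-loop-helix factors such as scleraxis bind.
Tnmd: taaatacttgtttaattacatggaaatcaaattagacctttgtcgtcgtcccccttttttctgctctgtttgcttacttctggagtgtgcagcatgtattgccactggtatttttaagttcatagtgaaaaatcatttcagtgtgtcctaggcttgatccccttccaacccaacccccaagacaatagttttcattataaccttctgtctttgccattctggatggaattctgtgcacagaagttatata
Chad: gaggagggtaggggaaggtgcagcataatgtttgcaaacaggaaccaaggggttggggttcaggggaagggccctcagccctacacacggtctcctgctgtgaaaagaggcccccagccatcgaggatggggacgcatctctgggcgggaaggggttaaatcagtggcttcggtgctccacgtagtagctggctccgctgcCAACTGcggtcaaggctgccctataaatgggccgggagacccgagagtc
Thbs4: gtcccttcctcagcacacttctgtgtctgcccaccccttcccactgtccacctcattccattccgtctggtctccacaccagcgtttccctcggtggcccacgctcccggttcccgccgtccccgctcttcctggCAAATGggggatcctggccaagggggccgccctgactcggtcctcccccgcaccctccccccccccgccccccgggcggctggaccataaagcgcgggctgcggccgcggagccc
Angptl7: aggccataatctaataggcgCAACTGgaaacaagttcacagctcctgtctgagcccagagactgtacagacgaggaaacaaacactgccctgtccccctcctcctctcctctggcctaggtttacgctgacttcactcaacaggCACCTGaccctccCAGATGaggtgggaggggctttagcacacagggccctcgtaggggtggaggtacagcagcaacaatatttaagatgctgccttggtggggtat
Tnmd had 0 matches, Chad 1, Thbs4 1 and Angptl7 3. Of 32841 RefSeq promoters of this length, 66.2% held at least 1 E-box and 12.2% at least 3, and CANNTG reads the same on both strands. Matches to the AP-1 motif TGANTCA (in 6.75% of promoters) and the EGR motif GCGNGGGCG (in 4.70%), searched on both strands, were 0 in all 4. A match describes these letters, not a bound site.

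Tendon genes outside the rule set tenocytes apart from FAPs by a wide margin. Angptl7, a secreted angiopoietin-like protein, had 5181 CPM at 9 h and 2236 CPM at 2 h in tenocytes, against 15.1 and 23.8 CPM in FAPs. Wif1, a secreted inhibitor of Wnt ligands, had 389 CPM at 9 h and 605 CPM at 2 h in tenocytes and no UMI in FAPs at either time. Against the FAP floor of 3 UMIs, Wif1 was at least 2126-fold higher at 9 h and at least 2984-fold higher at 2 h. Cilp2, a matrix protein of the cartilage intermediate layer family, had 218 CPM at 9 h and 1163 CPM at 2 h in tenocytes, against 0.731 and 0.405 CPM in FAPs. These genes were found in a part of the cells: Wif1 in 25 of 46 tenocytes at 9 h and 41 of 81 at 2 h.

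Differences are given as log2 ratios of CPM plus 10, and a gene was called higher or lower past 2-fold (a log2 ratio of at least 1 or at most -1). With 1 library for each time, no test was possible. Against FAPs at 9 h, 1215 genes had at least 50 UMIs in tenocytes or a FAP level that would give 50 there, and 8.89% were called higher and 9.71% lower. At 2 h, 2548 genes were measured, with 8.24% called higher and 10.2% lower. Of 23 tendon genes outside the rule, 14 were measured at 9 h and 11 of them were higher in tenocytes (median log2 ratio 3.17, over all measured genes -0.09). At 2 h, 19 were measured and 16 were higher (median 3.56, over all measured genes -0.12). A gene that is low in FAPs can be measured only through tenocytes, so these counts leave out members that are low in both.

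Other matrix genes were higher in tenocytes than in FAPs at both times. Lox (lysyl oxidase, which cross-links collagen) had 9366 CPM at 9 h and 4765 CPM at 2 h in tenocytes, against 743 and 229 CPM in FAPs. Col12a1 (a collagen on fibril surfaces) had 565 CPM at 9 h and 1106 CPM at 2 h, against 77.2 and 64.2 CPM. Mfap4 (a microfibril protein) had 240.4 CPM at 9 h and 1099 CPM at 2 h, against 5.79 and 29.0 CPM. Cilp, Ecrg4, Ccdc3, Cpxm2, Itgbl1 and Pappa2, which encode secreted proteins, also stood higher at both times, with log2 ratios of 3.01 (Itgbl1) to 4.62 (Ccdc3) at 9 h and 3.07 (Itgbl1) to 5.58 (Ccdc3) at 2 h.

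Signalling genes were among them as well. Hbegf, a ligand of the EGF receptor, had 822 CPM at 9 h and 716 CPM at 2 h in tenocytes, against 46.9 and 23.2 CPM in FAPs. Sema3a, a secreted guidance protein, had 285 CPM at 9 h and 101 CPM at 2 h, against 1.46 and 1.89 CPM.

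**Figure D2:**
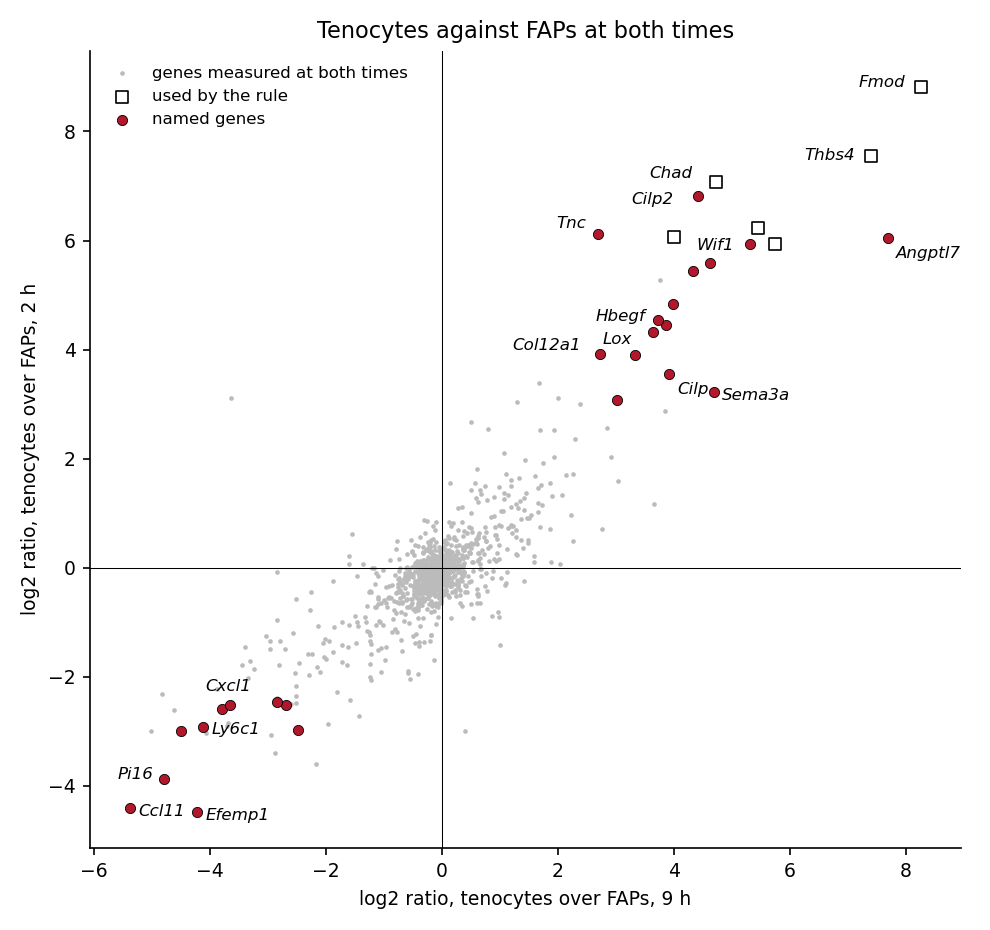
Log2 ratio of tenocytes over FAPs at 9 h (horizontal) and 2 h (vertical) for genes measured at both times. Open squares are the genes of the rule and red points the named genes; Angptl7 lies at 7.69 and 6.06, Tnc at 2.70 and 6.12, and Ccl11 at -5.37 and -4.40.

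Among the genes lower than in FAPs at both times was Pi16, a marker of adventitial fibroblasts. Pi16 had 8.39 CPM at 9 h and 64.7 CPM at 2 h in tenocytes, against 500.3 and 1086 CPM in FAPs. Ccl11 (eotaxin 1, which attracts eosinophils) had 8.39 CPM at 9 h and 89.4 CPM at 2 h, against 752 and 2081 CPM. Efemp1 (fibulin 3) had no UMI at 9 h and 5.18 CPM at 2 h, against 177 and 326 CPM. Against a floor of 3 UMIs, Efemp1 was at least 21.1-fold lower at 9 h, and Dpep1, also with no UMI there, at least 25.7-fold lower. Ly6c1, Procr, Ecm1, Prss23 and Ifi204 were lower at both times, with log2 ratios of -4.11 (Ly6c1) to -2.48 (Prss23) at 9 h. Of 15 FAP markers, 2 of them in the FAP rule, 10 were measured at 9 h and 7 were lower, and 15 were measured at 2 h and 10 were lower. The share lower over all measured genes was 9.71% at 9 h and 10.2% at 2 h.

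Between the times, 1601 genes had at least 100 UMIs over the tenocytes of both libraries. Of these, 14.4% were called higher at 9 h and 24.1% lower (38.5% in all). In FAPs, 12.8% of the same genes were higher at 9 h and 19.1% lower (31.9% in all). The calls were largely joint: 164 genes were higher in both cell types and 239 lower in both, while 66 were higher and 146 lower in tenocytes with FAPs inside 2-fold. The genes were chosen by tenocyte UMIs, and with 10 CPM added a gene near 0 in FAPs cannot be called there. Fmod, for one, had 2.99 CPM at 9 h and 9.73 CPM at 2 h in FAPs, but a log2 ratio of -0.60. The counts for FAPs are therefore not on an equal footing with those for tenocytes. The median of all 1601 genes was -0.07 in tenocytes and -0.05 in FAPs. With trimmed-mean (TMM) scaling the medians were -0.20 and -0.17, so that scale moves the values by more than 0.1.

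**Figure D3:**
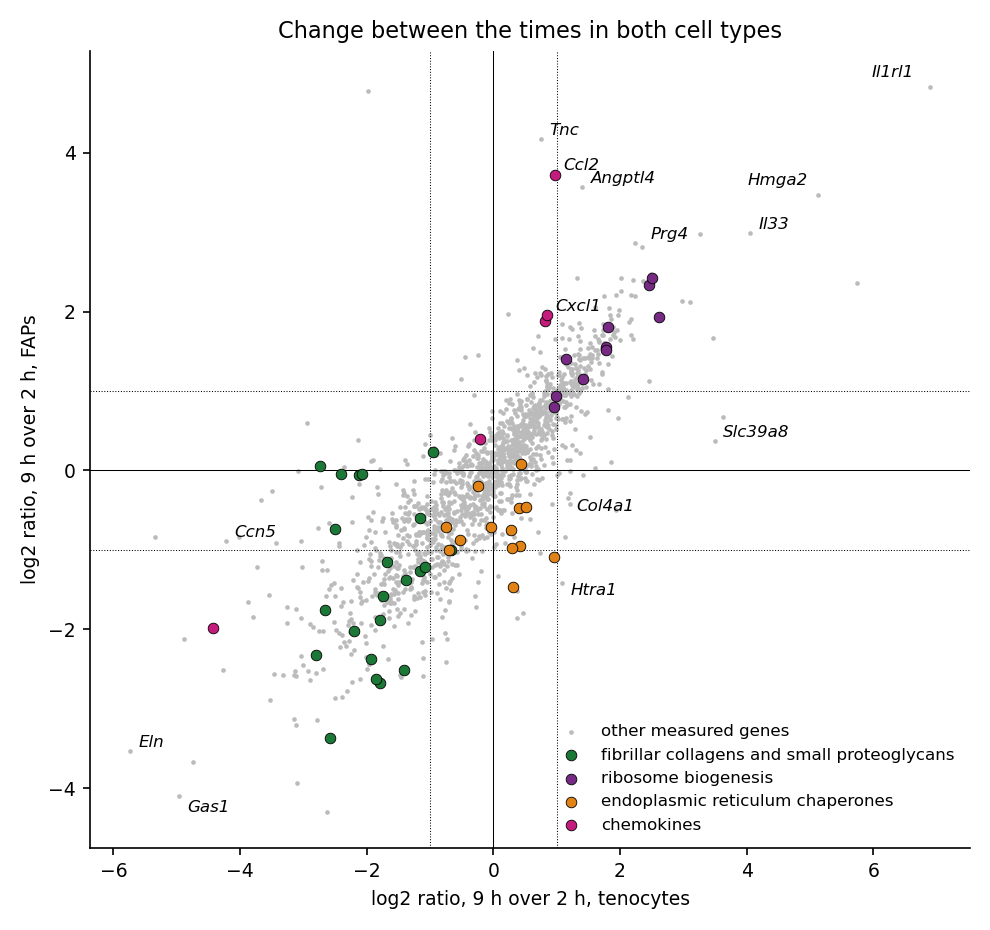
Log2 ratio of 9 h over 2 h in tenocytes (horizontal) and in FAPs (vertical) for the 1601 genes measured in tenocytes, with dotted lines at 2-fold. Fibrillar collagens and small proteoglycans (green) lie left of 0, ribosome biogenesis genes (purple) in the upper right, endoplasmic reticulum chaperones (orange) inside 2-fold in tenocytes and at or below 0.08 in FAPs, and Ccl2 at 0.97 and 3.73.

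Collagen genes were lower in tenocytes at 9 h than at 2 h. Col1a1 and Col1a2 encode the chains of type I collagen. Col1a1 had 2567 CPM at 9 h and 8895 CPM at 2 h in tenocytes, 3.47-fold lower at 9 h (3.23 to 3.72), and 331 and 2175 CPM in FAPs. Col1a2 had 3439 CPM at 9 h and 13170 CPM at 2 h, 3.83-fold lower at 9 h (3.61 to 4.07). Col3a1, of type III collagen, had 1280 CPM at 9 h and 4677 CPM at 2 h. Of 11 fibrillar and fibril-associated collagen genes, 10 were lower at 9 h and none higher (median log2 ratio -1.86), and 8 of the same 11 were lower in FAPs (median -1.75). The share lower over all measured genes was 24.1% in tenocytes and 19.1% in FAPs. The exception in tenocytes was Col12a1, at -0.96. Col1a1 was higher in tenocytes than in FAPs at both times, with log2 ratios of 2.92 at 9 h and 2.03 at 2 h, whereas Col3a1 was inside 2-fold at both.

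Type XI collagen genes, best known from cartilage fibrils, were near 0 in FAPs. Col11a1 had 75.5 CPM at 9 h and 349.6 CPM at 2 h, against 0.244 and 0.540 CPM in FAPs. Col11a2 had 14.0 CPM in 4 cells at 9 h and 150.2 CPM in 35 cells at 2 h, against 0.853 and 0.473 CPM.

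Small leucine-rich proteoglycans, which coat fibrils, followed the collagens. Of 11 measured in tenocytes, 10 were lower at 9 h (median -1.80), but Fmod, Kera, Chad and Dcn among them belong to the rules that chose the cells. In FAPs, 7 of the 11 were lower. Fmod, Kera and Chad had 9.73, 0.473 and 0.338 CPM in FAPs at 2 h, too little to be called lower with 10 CPM added. The share lower over all measured genes was 24.1% in tenocytes and 19.1% in FAPs. Prelp had 377 CPM at 9 h and 2178 CPM at 2 h in tenocytes, and 213 and 363 CPM in FAPs. Ogn (osteoglycin) had 514 CPM at 9 h and 3653 CPM at 2 h, and Bgn (biglycan) had 987 CPM at 9 h and 2216 CPM at 2 h. Dcn (decorin), which is part of the FAP rule, stayed inside 2-fold in tenocytes, with 10948 CPM at 9 h and 17470 CPM at 2 h. Tendon genes outside the rule did likewise: 14 of 18 were lower at 9 h (median -1.66) and Angptl7 alone was higher, at 1.21, in 35 of 46 cells at 9 h and 51 of 81 at 2 h.

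Some genes of collagen folding and of elastic fibres were also lower. Serpinh1 (HSP47, the collagen chaperone) had 361 CPM at 9 h and 1492 CPM at 2 h. Of 16 collagen processing genes, 8 were lower at 9 h in tenocytes and none higher, beside 24.1% lower over all genes. In FAPs 6 of the 16 were lower and 1 higher. The summed tenocyte level of the list was not lower, with 11552 CPM at 9 h and 10830 CPM at 2 h. Lox stood apart in tenocytes at 0.97, just under 2-fold. Of 10 elastic fibre genes, 6 were lower in tenocytes and none higher, and 7 were lower in FAPs. Among them, Eln (elastin) had no UMI in 46 tenocytes at 9 h, against 522 CPM in 45 of 81 cells at 2 h, at least 62.2-fold lower when set against a floor of 3 UMIs. In FAPs Eln had 9.81 CPM at 9 h and 220.1 CPM at 2 h. Sparc, a collagen-binding matricellular protein, had 2709 CPM at 9 h and 8709 CPM at 2 h in tenocytes.

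The genes with the lowest ratios had varied roles. Gas1, a hedgehog co-receptor, had 11.2 CPM at 9 h and 649 CPM at 2 h. Has1 (hyaluronan synthase 1) had 36.3 CPM at 9 h and 635 CPM at 2 h. At 2 h it was found in 21 of the 55 tenocytes with a Cilp2 UMI and in 21 of the 26 without. Whether a different mix of cells at the 2 times enters its ratio was not tested. Itga2, the collagen-binding integrin chain, had 1 UMI at 9 h and 128 CPM in 45 cells at 2 h. Angptl1, Spon2, Ccn5, Pamr1, Dkk2, Antxr1, Crip1 and Ifi27l2a were lower too, with log2 ratios of -4.88 (Ifi27l2a) to -3.47 (Crip1), and all but Ccn5 were also lower in FAPs.

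A few matrix genes went the other way or held. Col4a1, of basement membrane collagen, had 1197 CPM at 9 h and 522 CPM at 2 h in tenocytes, 2.29-fold higher at 9 h (2.00 to 2.63), and 1601 and 2045 CPM in FAPs. Htra1, a secreted serine protease, had 1116 CPM at 9 h and 522 CPM at 2 h in tenocytes, but 78.8 and 227 CPM in FAPs. Its log2 ratio was 1.08 in tenocytes and -1.41 in FAPs. Without the tenocytes that met the FAP counts, the tenocyte value was 0.92, under the 2-fold line, as it was with TMM scaling (0.94) and with cells weighted equally (0.89). Fn1 (fibronectin) had 1658 CPM at 9 h and 1576 CPM at 2 h in tenocytes, and 770 and 1954 CPM in FAPs. Col6a2 (a chain of microfibrillar type VI collagen) had 601 CPM at 9 h and 1011 CPM at 2 h in tenocytes, inside 2-fold, and 218 and 1203 CPM in FAPs.

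Of 18 measured matricellular genes, 9 were lower and 0 higher at 9 h in tenocytes, and 6 were lower and 3 higher in FAPs. Over all measured genes, 24.1% were lower and 14.4% higher in tenocytes, and 19.1% and 12.8% in FAPs. The matricellular genes Tnc and Ccn2 rose in FAPs by 9 h and stood higher in tenocytes than in FAPs at both times. Tnc (tenascin C) had 1599 CPM at 9 h and 945 CPM at 2 h in tenocytes, against 238 and 3.71 CPM in FAPs. Its log2 ratio between the times was 0.75 in tenocytes and 4.18 in FAPs. Ccn2 (connective tissue growth factor) had 5318 CPM at 9 h and 4530 CPM at 2 h in tenocytes, against 2155 and 541 CPM in FAPs. Tnc was carried by 40 of 46 tenocytes at 9 h and 61 of 81 at 2 h, with 10.7% and 6.99% of its UMIs in the top cell.

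Genes that rose in tenocytes by 9 h included those of growth and ribosome biogenesis, which rose in FAPs too. Npm1 (nucleophosmin) had 2449 CPM at 9 h and 425 CPM at 2 h in tenocytes, 5.77-fold higher at 9 h (5.07 to 6.57), and 2371 and 432 CPM in FAPs. Ncl (nucleolin) had 2005 CPM at 9 h and 357 CPM at 2 h in tenocytes. Of 10 measured ribosome biogenesis genes, 8 were higher at 9 h and none lower (median 1.78), with 8 of 10 in FAPs (median 1.54), and none was called different between the cell types. The share higher over all measured genes was 14.4% in tenocytes and 12.8% in FAPs. Without the tenocytes that met the FAP counts, 5 ribosome biogenesis genes were measured and 4 were higher. Fbl, C1qbp, Mif and Nme1 rose with log2 ratios of 2.37 (Nme1) to 2.61 (Fbl).

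Hmga2, a chromatin protein of growing mesenchymal cells, had 386 CPM in 23 tenocytes at 9 h and 1 UMI at 2 h, a ratio of 298 with a counting interval of 52.6 to 11852. Il33, an alarmin cytokine, had 1750 CPM at 9 h and 95.8 CPM at 2 h in tenocytes, and 1980 and 240.1 CPM in FAPs. Igfbp3 had 1910 CPM at 9 h and 189 CPM at 2 h, and Prg4 (lubricin, the lubricant of tendon and joint surfaces) had 16149 CPM at 9 h and 3157 CPM at 2 h. Timp1, an inhibitor of matrix metalloproteases, had 4359 CPM at 9 h and 914 CPM at 2 h. FAPs rose in the same genes, with log2 ratios of 2.82 for Prg4 and 2.97 for Igfbp3.

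Slc39a8 (ZIP8, a zinc importer) differed between the cell types. It had 294 CPM in 22 of 46 tenocytes at 9 h and 16.8 CPM in 9 of 81 at 2 h, against 5.42 and 1.89 CPM in FAPs. The metallothioneins Mt1 and Mt2, which bind zinc, were carried by every tenocyte at both times, with Mt2 at 22484 CPM at 9 h and 9622 CPM at 2 h in tenocytes and at 17636 and 8219 CPM in FAPs. Slco2a1, a prostaglandin transporter, had 713 CPM at 9 h and 55.7 CPM at 2 h, with log2 ratios of 3.46 in tenocytes and 1.67 in FAPs. Tsc22d3 (GILZ, a target of the glucocorticoid receptor) had a log2 ratio of 1.13 in tenocytes and -0.84 in FAPs, and Sat1, a polyamine enzyme, had 0.37 and -1.52. Among regulators of the sodium pump, Fxyd5 was at 1.86 in tenocytes and 0.11 in FAPs, and Fxyd6 at -2.72 and -0.20.

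Chemokines separated the 2 cell types at 9 h. Ccl2, the monocyte attractant, had 1219 CPM in 23 of 46 tenocytes at 9 h and 619 CPM in 18 of 81 at 2 h, against 8729 and 650.3 CPM in FAPs. The log2 ratio of tenocytes over FAPs was -2.83 at 9 h and -0.07 at 2 h. Between the times, Ccl2 was 0.97 in tenocytes, under the 2-fold line, and 3.73 in FAPs. The 2 h value rests on few cells, since 78.9% of its UMIs came from 2 tenocytes, and when the rule was read at 2000 UMIs a cell the ratio between the times was -0.33. After thinning to 1000 UMIs, Ccl2 was seen in 28.3% of tenocytes at 9 h (16.0 to 43.5) and 11.3% at 2 h (5.28 to 20.3). The same shares were 61.4% and 16.3% in FAPs, and 6.26% and 2.12% in the neutrophil reference, which should lack the gene's RNA or carry it as free RNA from other cells.

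Neutrophil attractants were lower still. Cxcl5 had 81.1 CPM at 9 h and no UMI at 2 h in tenocytes, against 11172 and 47.1 CPM in FAPs, and its 9 h level was below the 281 CPM of the neutrophil reference. The 9 h level comes from 29 UMIs in 15 cells, 14 of them in 1 cell. Cxcl1 had 414 CPM at 9 h and 227 CPM at 2 h in tenocytes, against 5274 and 1351 CPM in FAPs and 242 and 70.4 CPM in the neutrophil reference. Cxcl13, an attractant of B cells, had no UMI in tenocytes at either time, against 313 and 69.9 CPM in FAPs. Of 10 chemokine genes measured at 9 h, all 10 were lower in tenocytes (median log2 ratio -3.85), and at 2 h 6 of 10 were lower and 1, Cxcl10, was higher (median -1.79). The share lower over all measured genes was 9.71% at 9 h and 10.2% at 2 h. Cxcl10 came from 5 tenocytes. At 9 h the list is measured mostly through FAPs, where these genes were high. Cxcl14, an attractant of monocytes that FAPs also carry, had 1269 CPM at 9 h and 1471 CPM at 2 h in tenocytes, against 3586 and 2729 CPM in FAPs.

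**Figure D4:**
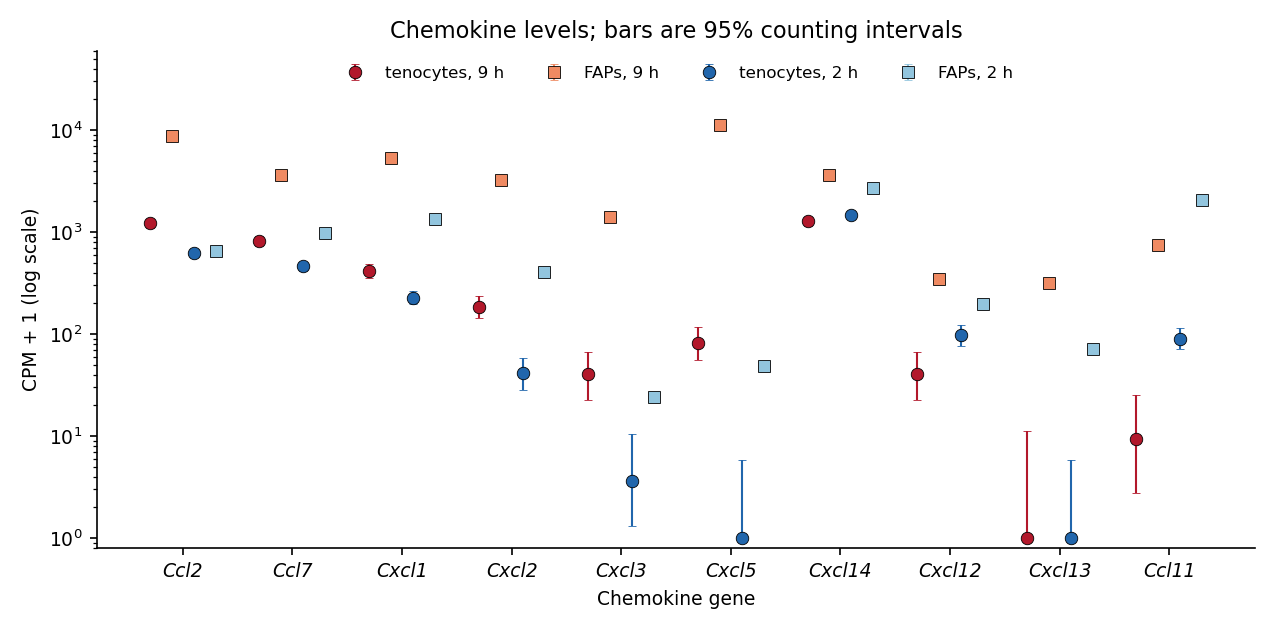
CPM plus 1 (log axis) of 10 chemokine genes in tenocytes (circles) and FAPs (squares) at 9 h (reds) and 2 h (blues), with exact 95% counting intervals. At 9 h every FAP square lies above its tenocyte circle, with Ccl2 at 8729 CPM in FAPs and 1219 CPM in tenocytes.

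Of 8 cytokine receptor genes, 2 were higher at 9 h and none lower in tenocytes and the same number in FAPs, beside 14.4% higher over all genes in tenocytes, so the list is not set apart by its count. One was Il1rl1, the receptor of IL-33, with 2253 CPM in 13 cells at 9 h and 9.06 CPM in 4 cells at 2 h, of which 1 cell gave 27.3% of the 9 h UMIs. The other, Il13ra1, had 187 CPM at 9 h and 58.3 CPM at 2 h. Sod2, a mitochondrial antioxidant enzyme and target of NF-κB, had 618 CPM at 9 h and 150.2 CPM at 2 h in tenocytes, and 857 and 212 CPM in FAPs. Lcn2 (lipocalin 2) had 1868 CPM at 9 h and 208 CPM at 2 h, but the neutrophil reference held 2803 and 1267 CPM, and its part in the tenocyte level was not tested.

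The summed level of endoplasmic reticulum chaperones was higher in tenocytes than in FAPs at 9 h. Hspa5 (BiP) had 3405 CPM at 9 h and 2805 CPM at 2 h in tenocytes, against 1398 and 2366 CPM in FAPs. Pdia4, a protein disulfide isomerase, had 187 CPM at 9 h and 149 CPM at 2 h, against 30.9 and 103 CPM. Herpud1, a factor of protein degradation at that membrane, had 260.0 CPM at 9 h and 211 CPM at 2 h, against 47.5 and 104 CPM. Of 13 measured genes of the list, 6 were higher in tenocytes at 9 h (Hspa5, Hsp90b1, Pdia4, Herpud1, Creld2 and Manf) and none at 2 h. Over all measured genes, 8.89% were higher at 9 h and 8.24% at 2 h. The median log2 ratio of the 13 genes was 0.95 at 9 h and 0.27 at 2 h. Between the times none of the 13 passed 2-fold in tenocytes, and 2 fell in FAPs.

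Much of that 9 h difference sits in few cells. Summed over the list, tenocytes had 8376 CPM at 9 h and FAPs 3871 CPM. The median cell, however, had 3644 CPM in tenocytes and 3203 CPM in FAPs, and the highest tenocyte had 73717 CPM. The top tenocyte gave 19.2% of the Hspa5 UMIs, 27.4% of those of Hsp90b1 and 32.2% of those of Creld2, which was found in 10 cells. When the rule was read at 2000 UMIs a cell, 10 genes were measured and 3 were higher. With single cells weighted equally, the median over genes was 0.91, but this is a mean over cells, which a few high cells still raise.

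**Figure D5:**
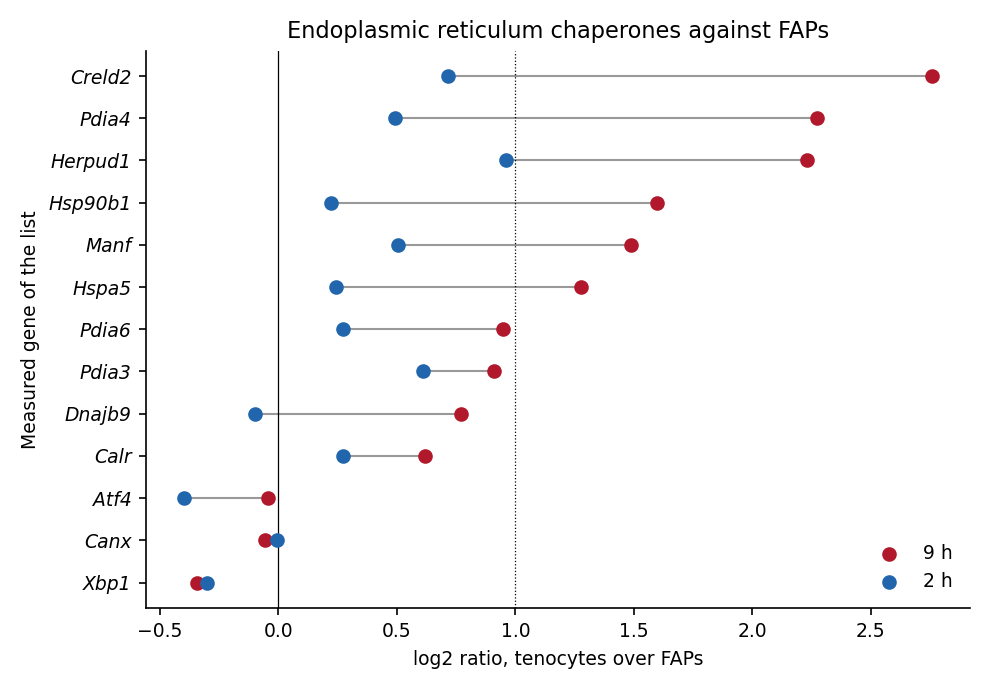
Log2 ratio of tenocytes over FAPs for the 13 measured endoplasmic reticulum genes at 9 h (red) and 2 h (blue), with a dotted line at 2-fold. Of them, 6 lie right of that line at 9 h, from 1.28 for Hspa5 to 2.76 for Creld2, and none at 2 h.

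Of 20 immediate early genes, which respond within minutes to stress and growth signals, 12 were lower at 9 h and 1, Fosl1, was higher in tenocytes (median -1.22), and 13 were lower in FAPs (median -1.56). Over all measured genes, 24.1% were lower and 14.4% higher in tenocytes, and 19.1% were lower in FAPs. Without the tenocytes that met the FAP counts, 14 immediate early genes were measured and 6 were lower. Egr1, which is also a regulator of collagen genes in tendon, had 436 CPM at 9 h and 2111 CPM at 2 h in tenocytes, and 628 and 3156 CPM in FAPs. Atf3 had 25.2 CPM at 9 h and 303 CPM at 2 h. Of 14 heat shock genes, 3 were lower and 2 higher at 9 h in tenocytes (median -0.53), while 9 were lower in FAPs (median -1.10). In tenocytes these counts are near the shares over all genes, so the list is not set apart there by its count. Of 15 heat shock genes measured at 2 h, 6 were lower in tenocytes than in FAPs, beside 10.2% over all genes. Hspb1 had 414 CPM at 9 h and 663 CPM at 2 h in tenocytes, against 668 and 1920 CPM in FAPs.

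Receptors of TGF-β, a growth factor that drives tendon matrix, were lower at 9 h. Its ligand gene Tgfb3, under the minimum of 100 UMIs, had 1 UMI at 9 h and 73.8 CPM in 37 cells at 2 h. Tgfbr1 had 64.3 CPM at 9 h and 167 CPM at 2 h, and Tgfbr2 had 72.7 CPM at 9 h and 161 CPM at 2 h. Of 12 measured genes of TGF-β and BMP signalling, 6 were lower at 9 h in tenocytes, and Bmp2 and Fst were higher. Over all measured genes in tenocytes, 24.1% were lower and 14.4% higher, so the number higher is near that share. In FAPs 2 of the 12 were lower and 2 higher. In tenocytes Bmp2 had a log2 ratio of 1.21, and of -0.02 without the tenocytes that met the FAP counts. Fst (follistatin, an activin antagonist) had 539.6 CPM in 12 cells at 9 h and 137 CPM in 25 cells at 2 h. Of 9 force-sensing and adhesion genes, Zyx (zyxin) was lower in tenocytes, at -1.04, and 8 stayed inside 2-fold, beside 24.1% lower over all genes. Piezo1, a stretch-gated channel, had 120.2 CPM at 9 h and 81.6 CPM at 2 h in tenocytes, against 45.3 and 24.2 CPM in FAPs. The 10 proliferation genes summed to 115 CPM at 9 h and 71.2 CPM at 2 h in tenocytes, against 147 and 106 CPM in FAPs. Pcna, which also serves DNA repair, made up 101 CPM at 9 h and 50.5 CPM at 2 h of the tenocyte sums, and the mitotic genes Mki67, Top2a, Ccnb1, Ccna2 and Cdk1 had no UMI at either time.

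The cells that the rule took as tenocytes were not uniform. At 2 h, the 51 cells with 5 or more tendon genes had 932 CPM of Wif1, 1766 CPM of Cilp2 and 11345 CPM of Col1a1, against 10.9, 69.2 and 4452 CPM in the 30 cells with 3 or 4. Ly6a (Sca-1, a gene of FAPs) had 424 CPM in the cells with 5 or more and 4303 CPM in those with 3 or 4, of which 18 met the FAP counts, against 11 of the 51. FAPs at 2 h had 2147 CPM of Ly6a and no UMI of Wif1. Over all 2 h tenocytes, 35.1% of the Ly6a UMIs came from 2 cells. In other genes the cells with 3 or 4 differed from FAPs. They had 69.2 CPM of Cilp2 and 543 CPM of Angptl7, against 0.405 and 23.8 CPM in FAPs. Whether all of them are tenocytes was not tested. At 9 h, Ly6a had 539 CPM in the 23 cells with 5 or more and 434 CPM in the 23 with 3 or 4, and Angptl7 had 7306 and 1894 CPM. The tendon gene count that splits these cells is part of the rule, so the split is a description.

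Genes were also unevenly shared among the 2 h tenocytes. Of the 44 cells with a Chad UMI, 34 carried Wif1, 42 carried Cilp2 and 24 carried Scx, against 7, 13 and 5 of the 37 cells without. Pdgfra was found in 7 of the 44 and in 22 of the 37. Chad and Scx are rule genes and these counts were not thinned, so this split is a description too. Tppp3, known from the tendon sheath, was carried by 18 of the 81 tenocytes, or 22.2%, against 73.7% of FAPs at 2 h. Pdgfra was found in 15 of these 18, against 14 of the 63 without Tppp3, and Wif1 in 3 of 18, against 38 of 63. At 9 h Tppp3 was found in 2 tenocytes, or 4.35%, and in 4.84% of FAPs, so its share was lower than at 2 h in both cell types.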

How the data were processed

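The values are raw UMI counts per gene and barcode, deposited by the authors as 1 filtered matrix for each time. Per the submitters' processing notes the matrices were made with Cell Ranger 5.0.0 on mm10, while the annotation release and alignment settings are not given in the sources used here. UMIs were summed over the tenocytes and over the FAPs of each library and divided by the group's total. The log2 ratio used a pseudocount of 10 CPM. A gene was measured between times with at least 100 UMIs over both libraries, and against FAPs with at least 50 UMIs, observed in tenocytes or given by the FAP level. With 1 library per time no test was run, and a 2-fold difference was used as the call. Intervals are 95% exact Poisson, conditional binomial or Clopper-Pearson, and a count of 0 was set at a floor of 3 UMIs.

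Named genes were the 12 highest and 12 lowest ratios between times, the 15 highest and 10 lowest against FAPs, and the 8 highest and 8 lowest differences in change. They had to reach 100 CPM and 20% of the cells of the higher group, with at most 25% of UMIs in 1 cell. Members of the gene lists were named by level or ratio, and a few beyond these rules (such as Piezo1, Atf3, Hspb1 and Tgfb3) were picked after their values were seen. The tenocyte rule, the gene lists and the tests were chosen with earlier results of these data known. The script for ratios was tested on simulated data. No doublet caller was run. Of the tenocytes, 0 had over 3 times the median UMIs, and those that met the FAP counts could include doublets. Sums, intervals and figures used Python 3.11.15, numpy 2.4.6, scipy 1.17.1, pandas 2.3.3 and matplotlib 3.10.9. The TMM factors came from edgeR 4.0.16 (R 4.3.3). Alternatives covered the rule, the scaling, the pseudocount, the minimum and single cells.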

Additional observations from a re-analysis of the deposited data

Results flagged for a closer look

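Htra1, a secreted serine protease, moved in opposite directions in the cell types. Its log2 ratio of 9 h over 2 h was 1.08 in tenocytes and -1.41 in FAPs. With 1 library for each time, the difference was not tested.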

How the results depend on the processing

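The limits are 1 library per time, 46 and 81 cells, and a rule that reads tendon genes. No paired analysis was possible because each time has 1 library and the groups share fewer than 2 replicate numbers. The tenocyte share at 9 h was 0.393% when at least 4 tendon genes were asked for, and 30 cells were found at 9 h with the rule read at 2000 UMIs. Leaving out tenocytes that met the FAP counts left 29 cells (0.356%) at 9 h and 52 (1.06%) at 2 h, with 129 genes higher and 228 lower at 9 h in tenocytes, 105 and 184 in FAPs, and 71 lower than in FAPs at 9 h; fewer genes then reach the minimum. A pseudocount of 50 CPM gave 201 genes lower at 9 h in FAPs.

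With a minimum of 20 UMIs, 739 genes were higher and 996 lower at 9 h in tenocytes, 615 and 716 in FAPs, 174 higher and 254 lower than in FAPs at 9 h, and 425 lower at 2 h. With no minimum these were 1000 and 1327, 734 and 932, 298 and 621, and 367 and 557 at 2 h. At 4-fold they were 29 and 117, 29 and 64, 44 and 59, and 96 and 82. Without the deepest tenocyte of each library the counts were 227 and 374, 190 and 298, 100 and 116, and 207 and 260, in the same order.

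In 6 values past 1 on the log2 scale the sign turned or the value came to 0. Against FAPs at 9 h, the median of neutrophil markers was 0.93 with the rule read at 2000 UMIs and 0 with neutrophil RNA taken away, and Scx was -0.0088 without tenocytes that met the FAP counts. Bmp2 between times was -0.020 without them, the median of cytokines was -0.28 with a 20 UMI minimum, and that of satellite cell markers against FAPs at 2 h was -0.038 with no minimum. Between times in tenocytes, Ccl2 (0.97) came to -0.33 with the rule read at 2000 UMIs. The cause was not tested. Without tenocytes that met the FAP counts, 4 of 5 measured ribosome biogenesis genes were higher and 6 of 14 immediate early genes lower at 9 h. Of the other recomputed ratios of single genes, 4989 moved by no more than the counting error and 823 by more.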

Other observations

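Of 9 glycolysis and hypoxia genes measured in tenocytes, 5 were higher and 1 lower at 9 h (median log2 ratio 1.04), with 4 higher and 1 lower in FAPs (median 0.97), beside 14.4% higher and 24.1% lower over all genes in tenocytes. Of 9 protease inhibitor genes, 4 were higher and 4 lower at 9 h in tenocytes, and 3 higher and 2 lower in FAPs. Genes of interferon response were lower for 4 of 9 and higher for 1 in tenocytes, and lower for 4 and higher for 0 in FAPs.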
